A study of Homo sapiens with 8 samples.

Results

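The genes described here are 10 S-phase genes chosen by name: MCM2, MCM3, MCM4, MCM5, MCM6 and MCM7, PCNA, RRM1, RRM2 and TYMS. All 10 were found among the 26902 entries of the expression table. The cells were U2OS, a long-established line from a human bone tumour, and either carried an empty vector or overexpressed QKI7, one of the protein forms made by the RNA-binding gene QKI. Both kinds of cell had received 0.5 mM sodium arsenite (NaAsO2), an oxidative stressor, for 1 h before harvest, so no comparison here bears on arsenite. Each kind of cell gave 2 input libraries and 2 footprint libraries, which makes 4 groups and 8 libraries. Inputs hold the RNA of the cells and footprints hold fragments recovered at 17 to 34 nt from collected ribosomes, and ribosomal RNA was depleted from both. Nothing in the labels tells if replicates were grown as separate cultures or if the overexpressing cells were a clone, and p-values therefore measure only the spread between these libraries.

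MCM2 to MCM7 form the ring-shaped helicase that is loaded at replication origins in G1 and unwinds DNA in S phase. PCNA is the sliding clamp that holds DNA polymerases on the template. Deoxynucleotides come from ribonucleotide reductase, made of the catalytic subunit RRM1 and the radical-bearing subunit RRM2, and from thymidylate synthase (TYMS), which makes the thymine nucleotide dTMP. Many S-phase genes are transcribed under the control of E2F factors, and proliferating tumour lines such as U2OS express them.

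The promoters of the members were read first, since the rule that chose the genes used no sequence. RefSeq sequences of GRCh38.p14 covering 250 bases before and 50 bases after the annotated start were at hand for 8 members (not MCM4 and MCM5), and the first start listed for each gene was used. An E2F-type word, any of TTTCCCGC, TTTCGCGC, TTTGGCGC and TTTGCCGC on either strand, occurred in 6 of these 8, in MCM2, MCM3, MCM6, MCM7, PCNA and TYMS, and in 4.36% of the 14947 protein-coding promoters searched. The words of MCM2 lay after the start, and no such word was found in the windows of RRM1 and RRM2. The CCAAT box, searched as CCAAT on either strand, occurred in 6 of 8 member windows and in 36.3% of all. The 100 bases before the start are printed for 4 members with an E2F-type word there and for the 2 reductase subunits, on which the results below turn, 5′ to 3′ on the gene's own strand. Capitals mark the E2F-type words and CCAAT boxes on either strand, and adjoining or overlapping words share 1 run of capitals.
MCM6 (chr2:135876444-135876543, minus strand): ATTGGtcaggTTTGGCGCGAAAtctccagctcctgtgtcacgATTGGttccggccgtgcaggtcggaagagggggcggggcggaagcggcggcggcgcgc
MCM7 (chr7:100101398-100101497, minus strand): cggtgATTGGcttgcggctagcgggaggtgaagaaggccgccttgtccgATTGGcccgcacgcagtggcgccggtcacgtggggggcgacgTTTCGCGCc
PCNA (chr20:5126623-5126722, minus strand): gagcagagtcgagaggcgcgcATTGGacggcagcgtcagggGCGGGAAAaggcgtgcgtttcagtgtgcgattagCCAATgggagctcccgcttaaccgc
TYMS (chr18:657553-657652, plus strand): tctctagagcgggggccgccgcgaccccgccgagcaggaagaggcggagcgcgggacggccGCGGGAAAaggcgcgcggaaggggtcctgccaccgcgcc
RRM1 (chr11:4094585-4094684, plus strand): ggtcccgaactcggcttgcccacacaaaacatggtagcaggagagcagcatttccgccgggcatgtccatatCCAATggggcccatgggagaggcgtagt
RRM2 (chr2:10122639-10122738, plus strand): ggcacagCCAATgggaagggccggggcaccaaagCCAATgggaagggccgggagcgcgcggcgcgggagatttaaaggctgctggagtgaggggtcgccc
In MCM6 an E2F-type word of each strand overlapped in 1 run. For RRM2 the start used is 10122739, which lies 171 bases inside the gene's outermost annotated start, so its window overlaps the annotated gene. The matches describe letters in these windows, and no binding was measured.

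The table gives TPM, a length-scaled share of all transcripts in a library, which divides by transcript length and so allows RNA levels of different genes to be compared. The coding share of each transcript was not corrected for. Footprint levels and footprint to input ratios are therefore less comparable between genes than RNA levels. Protein-coding genes took 3.72% to 4.51% of the TPM in inputs and 0.611% to 0.630% in footprints, and the rest lay in other entries, with ribosomal RNA, 7SL RNA and spike-ins among them. For tests, the values of 18718 protein-coding entries were rescaled to 1000000 per library and aligned by median of ratios, separately for inputs and footprints. A total of 3159 genes reached a mean of 25 rescaled TPM in both library types, all 10 members among them, and every log2 change below is on the log2(rescaled TPM + 1) scale unless it is said to be on another. The construct was visible in QKI itself, at 3.01 and 3.45 TPM in vector inputs and 1748.86 and 1579.91 TPM in QKI7 inputs. Of 8 mesenchymal and osteosarcoma markers 7, VIM, SPARC, CD44, FN1, COL5A1, CDH2 and LGALS1, averaged 1 TPM or more over the inputs, and RUNX2 did not. Among 18 blood, epithelial, neural and endothelial markers 0 reached that level.

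Among the 10 genes, MCM3 had the highest RNA level and MCM6 the lowest in every input library, more than 10-fold apart. In vector inputs MCM3 was at 10.13 and 10.97 TPM, MCM5 at 9.05 and 9.12, TYMS at 8.74 and 9.23, MCM7 at 7.93 and 8.12, and RRM2 at 5.64 and 5.93 TPM. Lower levels were found for MCM2 (3.80 and 3.88 TPM), MCM4 (3.55 and 3.64), PCNA (2.71 and 3.02), RRM1 (1.13 and 1.33) and MCM6 (0.93 and 0.98). MCM5 and TYMS could not be ordered because their libraries overlapped, and the other neighbours in this order did not overlap. QKI7 inputs kept this order, with MCM2 and MCM4 now also overlapping. The subunits of the MCM ring, which are present in equal number in the protein complex, thus differed in RNA level by 10.89-fold and 11.19-fold in the vector inputs.

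Footprints put the genes in another order, with PCNA far in front. In vector footprints PCNA was at 7.23 and 7.38 TPM and TYMS at 2.63 and 2.36 TPM. MCM7 followed at 1.34 and 1.09 TPM, MCM5 at 0.86 and 0.95, RRM1 at 0.92 and 0.89, MCM2 at 0.58 and 0.81, and RRM2 at 0.57 and 0.69 TPM. The lowest were MCM3 (0.30 and 0.36 TPM), MCM6 (0.25 and 0.23) and MCM4 (0.22 and 0.22). MCM3, first of the MCM subunits in RNA, was the 8th of the 10 genes in footprints. RRM1 and MCM5 overlapped, as did MCM2 and RRM2. PCNA made up 5.06% and 5.37% of the summed TPM of the 10 genes in vector inputs and 48.5% and 49.3% in vector footprints. Between the 6 MCM subunits the highest footprint level was 6.09-fold and 4.96-fold above the lowest in the vector libraries, so the spread was narrower than in RNA, and in QKI7 cells it was 4.15-fold and 6.06-fold in footprints against 11.96-fold and 11.13-fold in RNA. The table has 2 decimals, so at 0.22 TPM a single step is a visible part of the value and equal replicates do not mean that the spread was 0.

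**Figure D1:**
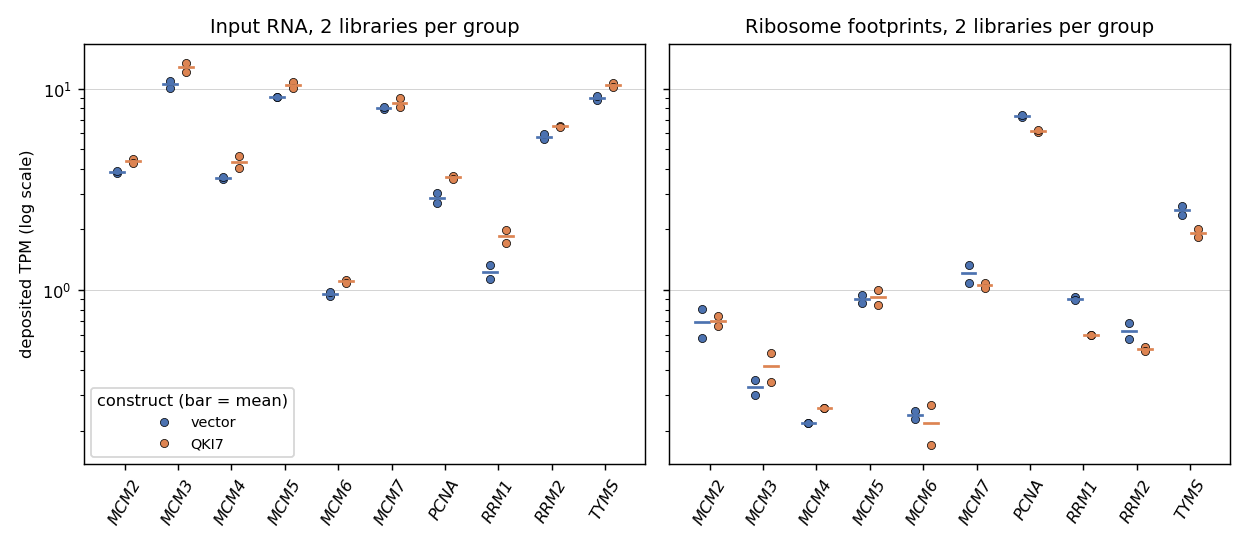
Deposited TPM (log scale) of the 10 genes in each of the 8 libraries, inputs on the left and footprints on the right, with points for libraries and bars for the mean of 2. MCM3 was the highest in inputs (10.13 to 13.39 TPM), while PCNA was the highest in footprints (6.07 to 7.38 TPM).

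The ratio of footprint to input places each gene among the tested mRNAs. PCNA stood at the 97.9th percentile in vector cells, with a log2 ratio 4.49 above the median mRNA, and RRM1 at the 91.5th percentile, 2.68 above it. TYMS stood at the 78.3rd percentile (1.30 above), MCM6 at the 75.4th (1.14 above) and MCM2 at the 65.2nd (0.67 above). MCM7, RRM2 and MCM5 lay near the middle, at the 59.8th, 48.8th and 46.0th percentiles. MCM4 was at the 31.6th percentile, with a ratio 0.85 below the median (relative log2 ratio -0.85), and MCM3 at the 15.1st, with -1.83. By this ratio, not corrected for coding share, the genes for the clamp and the reductase subunit RRM1 carried many footprints for their RNA. The MCM subunits were spread from the lower to the upper part of the range. PCNA overlaps PCNA-AS1 and a snoRNA gene, whose reads cannot be told apart from its own here.

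Against equal shares of the mRNA pool, 3 of the 10 genes were higher in footprints than in inputs (PCNA, RRM1 and TYMS) and 4 were lower (MCM3, MCM4, MCM5 and RRM2) in vector cells. Over all tested genes 78.3% passed, 27.3% as higher and 51.1% as lower. The same 7 genes passed in the same directions in QKI7 cells, where 75.5% of all tested genes passed, 25.3% as higher and 50.2% as lower. In vector cells the log2 ratio was 3.94 for PCNA (95% interval 3.76 to 4.11, limma adjusted p = 8.17e-10) and -2.38 for MCM3 (-2.74 to -2.01, adjusted p = 1.19e-06). On the deposited scale, where mRNA has a smaller share of footprint libraries, RRM1, TYMS and MCM2 turned lower (-0.23, -1.52 and -1.52 in vector cells) while PCNA stayed higher, so the percentiles describe these ratios better than their signs.

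**Figure D2:**
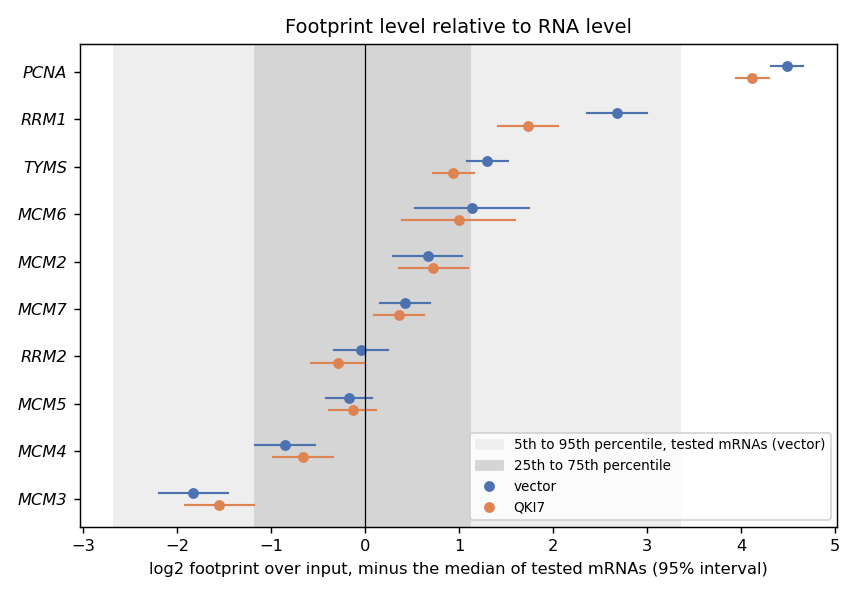
The log2 ratio of footprint to input for each gene, minus the median of 3159 tested mRNAs, with 95% intervals, in vector cells (blue) and QKI7 cells (orange); grey bands give percentiles of all tested mRNAs in vector cells. PCNA lay above the 95th percentile in both, and RRM1 moved from 2.68 in vector cells to 1.74 in QKI7 cells.

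The comparison of QKI7 with vector cells asks whether the construct changed the RNA level of these genes, their footprints, or the footprints for a given amount of RNA. RRM1 gave the clearest difference: its RNA was higher in QKI7 cells and its footprints were lower. RRM1 RNA was at 1.13 and 1.33 TPM in vector inputs and at 1.99 and 1.71 TPM in QKI7 inputs. RRM1 footprints were at 0.92 and 0.89 TPM in vector cells and at 0.60 and 0.60 TPM in QKI7 cells. Neither pair of groups overlapped, and the directions were opposite. As deposited, 48% of the tested genes were higher in both QKI7 inputs and 36.7% were lower in both QKI7 footprint libraries. In footprints the log2 change was -0.48 (SE 0.14, limma adjusted p = 0.0312), or 0.72-fold. In inputs it was 0.45 (SE 0.14), or 1.36-fold, which did not pass (adjusted p = 0.115). The difference between both changes, called the change in translation efficiency here, was -0.93 (95% interval -1.37 to -0.48, adjusted p = 0.0197), and only 2.56% of tested genes had a lower value.

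These RRM1 calls depended on how the spread was estimated. Replicates spread more in footprints than in inputs, with a median SD per gene of 0.199 against 0.0777 on the log2 scale, and the fit over 8 libraries gives both the same spread. Fitted on the 4 inputs alone, the RNA increase of RRM1 passed (adjusted p = 0.0491; 12.4% of all tested genes rose), and fitted on the 4 footprints alone its footprint decrease did not (adjusted p = 0.0922; 7.25% fell). With a weight for each library type, a setting added after the data were seen, the translation efficiency change still passed (adjusted p = 0.0367), the RNA increase passed (adjusted p = 0.00573) and the footprint decrease did not (adjusted p = 0.178). With these weights 10.5% of all tested genes rose in inputs, 13.7% passed in footprints and 2.28% fell in translation efficiency. The translation efficiency change ranged from -0.99 to -0.85 when 1 library was left out. With no filter on low values its adjusted p was 0.0533. It lost its call without either vector input (adjusted p = 0.0955 without replicate 1 and 0.0604 without replicate 2) and without either QKI7 input (0.11 and 0.0729), and kept it without any of the 4 footprint libraries (adjusted p up to 0.034). The footprint decrease was called in 1 of 8 such fits, the one without vector footprint replicate 2 (adjusted p = 0.0426); in the other fits, which left out vector input replicate 1 or 2, QKI7 input replicate 1 or 2, vector footprint replicate 1 or QKI7 footprint replicate 1 or 2, adjusted p was between 0.0525 and 0.0728 and the change between -0.48 and -0.45. With 2 libraries against 2, an exact permutation test cannot go below 0.333.

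RRM2, the partner subunit, passed in neither library type, and whether it differed from RRM1 was not tested. Its RNA was at 5.64 and 5.93 TPM in vector inputs and 6.53 and 6.45 TPM in QKI7 inputs, a log2 change of 0.04 after rescaling (95% interval -0.25 to 0.32, adjusted p = 0.943). Its footprints were at 0.57 and 0.69 TPM in vector cells and 0.52 and 0.50 TPM in QKI7 cells, with no overlap but with a change of -0.19 that did not pass (-0.47 to 0.10, adjusted p = 0.287). The ratio of RRM2 to RRM1, per unit length, was 4.99 and 4.46 in the RNA of vector cells and 3.28 and 3.77 in that of QKI7 cells. In footprints it was 0.62 and 0.78 in vector cells and 0.87 and 0.83 in QKI7 cells. RRM2 was thus the more abundant RNA, and RRM1 had more footprints per unit of transcript length. The coding share of each transcript was not corrected for, so this footprint order may not hold per coding base.

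TYMS and PCNA had RNA values slightly above and footprint values below those of vector cells, short of the threshold. TYMS RNA was at 8.74 and 9.23 TPM in vector inputs and 10.65 and 10.14 TPM in QKI7 inputs, and its footprints were at 2.63 and 2.36 against 2.02 and 1.83 TPM. The log2 change of TYMS was 0.08 in inputs (adjusted p = 0.769), -0.26 in footprints (95% interval -0.48 to -0.05, adjusted p = 0.0647) and -0.34 in translation efficiency (adjusted p = 0.124). The TYMS footprint change passed without vector footprint replicate 2 or QKI7 footprint replicate 1, ranging from -0.36 to -0.16 over the fits that left out 1 library. PCNA RNA was at 2.71 and 3.02 TPM in vector inputs and 3.68 and 3.57 TPM in QKI7 inputs, and its footprints at 7.23 and 7.38 against 6.07 and 6.23 TPM. No library of 1 construct overlapped the other for PCNA. After rescaling, the change of PCNA was 0.21 in inputs (0.04 to 0.38, adjusted p = 0.186), -0.14 in footprints (-0.31 to 0.03, adjusted p = 0.195) and -0.35 in translation efficiency (-0.59 to -0.10, adjusted p = 0.0707). The RNA change of PCNA passed with weights by library type (adjusted p = 0.0146), and its footprint value turned to 0.13 under quantile normalization.

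The MCM subunits had small differences in both library types. In inputs, MCM3 went from 10.13 and 10.97 TPM to 13.39 and 12.13 TPM and MCM4 from 3.55 and 3.64 to 4.63 and 4.04 TPM. MCM2 was at 4.49 and 4.26, MCM5 at 10.82 and 10.10, MCM6 at 1.12 and 1.09 and MCM7 at 8.94 and 8.11 TPM in QKI7 inputs, of which MCM7 alone overlapped the vector libraries. As deposited, 48% of the tested genes had both QKI7 inputs above both vector inputs. After rescaling, the 6 log2 changes in inputs lay between -0.04 (MCM7) and 0.14 (MCM3), with adjusted p of 0.723 or more. In footprints MCM3 was at 0.35 and 0.49 TPM and MCM4 at 0.26 and 0.26 TPM in QKI7 cells, changes of 0.44 (95% interval 0.07 to 0.80, adjusted p = 0.0698) and 0.34 (0.02 to 0.66, adjusted p = 0.0946) that did not pass. Without QKI7 footprint replicate 1 the MCM3 footprint change was 0.67 (adjusted p = 0.0131), and the MCM4 change passed without the variance trend (adjusted p = 0.0436). MCM2 (0.66 and 0.74 TPM), MCM5 (0.84 and 1.00), MCM6 (0.27 and 0.17) and MCM7 (1.08 and 1.03) had changes of 0.14, 0.13, -0.05 and -0.09 in footprints, with adjusted p from 0.39 to 0.898. The widest interval was that of MCM6, from -0.66 to 0.56, which leaves room for changes in either direction.

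Over the 10 genes, 0 passed in inputs, where 5.79% of all tested genes did (1.11% higher and 4.69% lower). An unadjusted limma p under 0.05 was found for 2 of the 10, PCNA and RRM1, and for 559 of all 3159 tested genes. In footprints 1 passed, against 31.5% of all tested genes, and in translation efficiency 1 passed, against 12.2% (9.15% higher and 3.04% lower). The median change of the 10 genes was 0.08 in inputs, -0.07 in footprints and -0.08 in translation efficiency, beside medians of 0.01, 0.00 and 0.04 over all tested genes. As deposited, both QKI7 inputs exceeded both vector inputs for 9 of the 10 genes, all but MCM7, which was so for 48% of the tested genes, while 17% were lower in both. After rescaling this held for 8 genes (all but MCM7 and RRM2) against 32.6% of the tested genes, and 33.5% were lower. In footprints as deposited, MCM7, PCNA, RRM1, RRM2 and TYMS were lower in both QKI7 libraries (36.7% of the tested genes) and MCM4 was higher (22.6%). In footprints after rescaling, both QKI7 libraries were below both vector libraries for PCNA, RRM1, RRM2 and TYMS (29.7% of the tested genes) and above them for MCM3 and MCM4 (30.1%). On the deposited scale, log2(TPM + 1), where the median of all entries was 0.15 higher in QKI7 inputs, 4 of 9 members tested rose in inputs, MCM3, MCM4, PCNA and RRM1, against 39.1% of all entries. On that scale 0 members passed in footprints, where 8.2% of all entries did, and PCNA, RRM1 and TYMS fell in translation efficiency, against 21.6% of all entries. In bulk RNA, fewer cells of a type and less RNA per cell cannot be told apart.

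**Figure D3:**
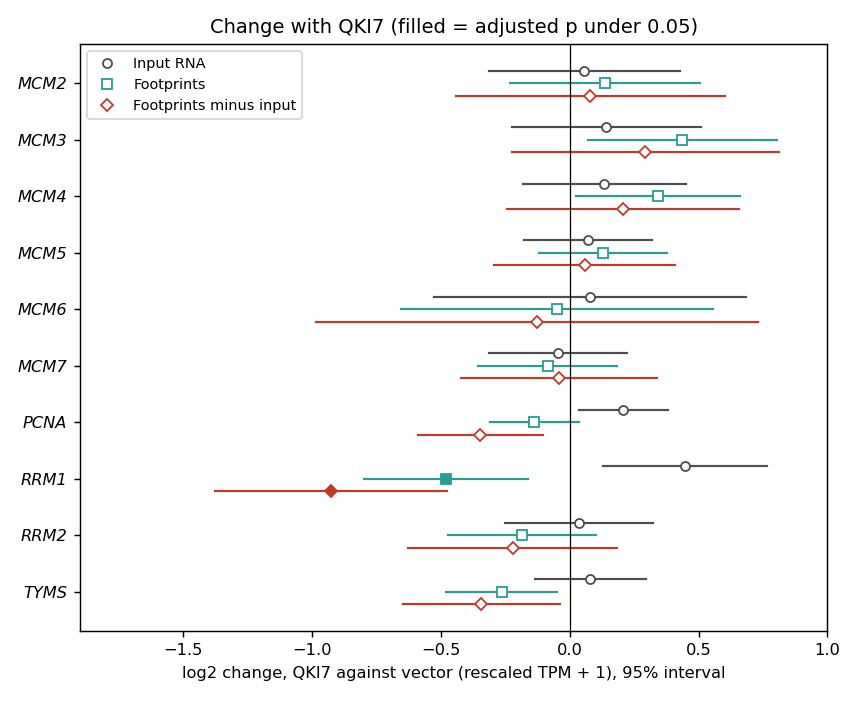
Log2 change of each gene between QKI7 and vector cells with its 95% interval, in inputs (circles), in footprints (squares) and as the difference of both (diamonds); filled symbols passed an adjusted p of 0.05. RRM1 alone has filled symbols, at -0.48 in footprints and -0.93 for the difference.

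Other genes of DNA replication were taken from lists made with the earlier results of these data known. The footprint counts below stand beside 31.5% of all tested genes, 17.7% as higher and 13.8% as lower. Of the 10 origin licensing genes 6 could be tested, and the footprints of 2 fell: those of MCMBP, an MCM-binding protein (0.21 and 0.23 TPM to 0.11 and 0.09 TPM; log2 change -0.99, adjusted p = 0.011), and of GMNN, the licensing inhibitor geminin (-0.47, adjusted p = 0.0384). CDC6, which loads the MCM ring, was at 0.60 and 0.49 TPM in vector footprints and 0.44 and 0.59 in QKI7 footprints (0.02, adjusted p = 0.935). CDT1 and ORC1 had changes of 0.09 and 0.41 in footprints (adjusted p = 0.805 and 0.289). Among 7 of 17 tested helicase assembly and fork genes, RECQL4, a fork helicase, and MCM8, an MCM relative in repair, rose in footprints by 1.00 and 0.80 (adjusted p = 0.00216 and 0.0195). CDC45, which joins the MCM ring in the active helicase, had -0.47 (adjusted p = 0.0938).

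Of 6 of 12 tested polymerase genes, POLD1, the catalytic subunit of polymerase delta, rose in footprints from 0.15 and 0.11 TPM to 0.23 and 0.37 TPM (1.25, adjusted p = 0.00477). PRIM2, the large primase subunit, fell from 0.59 and 0.45 TPM to 0.25 and 0.30 TPM (-0.79, adjusted p = 0.015). POLA1 and POLE, with footprints of 0.03 to 0.14 TPM, were too low to be tested. Of 11 of 19 tested genes for clamp loaders, RPA and lagging-strand synthesis, 4 rose and 2 fell in footprints. Over all tested genes 17.7% rose and 13.8% fell there. LIG1, the replicative DNA ligase, and RFC2 and RFC1, clamp loader subunits, rose by 0.84, 0.81 and 0.44 (adjusted p = 0.00312, 0.0392 and 0.0206), while RFC3 of the same loader went from 0.58 and 0.64 TPM to 0.32 and 0.35 TPM (-0.74, adjusted p = 0.00749). FEN1, the flap endonuclease, had -0.31 (adjusted p = 0.139), and RPA1 was too low in footprints to be tested.

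Among the nucleotide genes, more of the calls in footprints were lower than higher. Of 5 of 12 tested genes of deoxynucleotide supply, 2 fell and 0 rose, with a median of -0.42, which was -0.04 over all 12 genes with no filter on low values. TK1, thymidine kinase, fell from 2.12 and 2.34 TPM to 1.35 and 1.54 TPM (-0.52, adjusted p = 0.0117) and NME1, a nucleoside diphosphate kinase, by 0.63 on the log2 scale (adjusted p = 0.033). Of 9 of 18 tested genes of purine and pyrimidine synthesis, 4 fell and 1 rose, with a median of -0.29: GMPS, ADSL and IMPDH2, enzymes of purine synthesis, fell by 1.04, 0.67 and 0.50 (adjusted p = 0.00804, 0.0213 and 0.00618), and CAD, which starts pyrimidine synthesis, rose by 0.52 (adjusted p = 0.017). Over all tested genes 13.8% fell and 17.7% rose in footprints, with a median of 0.00.

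DNMT1, the maintenance DNA methyltransferase, rose in footprints by 0.85 (adjusted p = 0.00161), alone among 4 of 8 tested chromatin genes, and CCND1, cyclin D1, by 0.98 (adjusted p = 0.00428), alone among 5 of 18 tested E2F and S-phase regulators. CCNE1 and E2F1 were too low in footprints to be tested. In inputs 0 genes of these replication, nucleotide and regulator lists passed. Median input changes were 0.19 for licensing, 0.17 for helicase and fork, 0.22 for polymerase and 0.35 for clamp loader genes. For deoxynucleotide, purine and pyrimidine, chromatin and regulator genes they were 0.06, 0.05, 0.02 and 0.04, beside 0.01 over all tested genes. With weights by library type several genes passed in inputs, among them MCMBP, PRIM2, RFC3 and GMPS, which rose, and NME1 and TOP1, which fell. Rises numbered 1 of 6 licensing, 2 of 7 helicase and fork, 2 of 6 polymerase and 4 of 11 clamp loader genes. They numbered 1 of 9 purine and pyrimidine, 1 of 4 chromatin, 0 of 5 deoxynucleotide and 0 of 5 regulator genes. Over all 3159 tested genes 331 rose and 493 fell with these weights. On the deposited scale 9 of 11 tested helicase and fork genes, 6 of 8 polymerase genes and 9 of 13 clamp loader, RPA and lagging-strand genes rose in inputs, against 39.1% of all entries. So did 3 of 5 licensing, 3 of 6 chromatin, 5 of 12 regulator, 3 of 10 purine and pyrimidine and 1 of 7 deoxynucleotide genes. In the clamp loader list 1 gene fell, and in the deoxynucleotide list 2. Of 15 genes of G2 and mitosis, 9 rose and 1 fell on that scale. Over all entries tested there, 318 of 5806 fell in inputs. Of 14 tested genes of G2 and mitosis, another cycle phase, CENPF, a kinetochore protein, rose in inputs by 0.39 (adjusted p = 0.0258), and the median of that list was 0.24. In footprints BUB1 and CENPF rose by 0.57 and 0.29 and CCNB2 and CCNB1, the B-type cyclins, fell by 0.47 and 0.30 (adjusted p = 0.0351, 0.0293, 0.0322 and 0.0371), with a median of 0.01. MKI67, a proliferation marker, went from 33.28 and 37.83 TPM to 52.04 and 46.47 TPM in inputs (0.34, adjusted p = 0.086). The part of the cell cycle in the member values was not tested. With weights by library type, most of these footprint calls were lost: RECQL4, POLD1, LIG1, DNMT1 and CCND1 still rose, GMPS and IMPDH2 still fell, while the deoxynucleotide and G2 lists had 0 calls in footprints, and 824 instead of 183 genes passed in inputs. On the deposited scale TK1 and IMPDH2 still fell in footprints, and no other gene of these lists passed there.

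**Figure D4:**
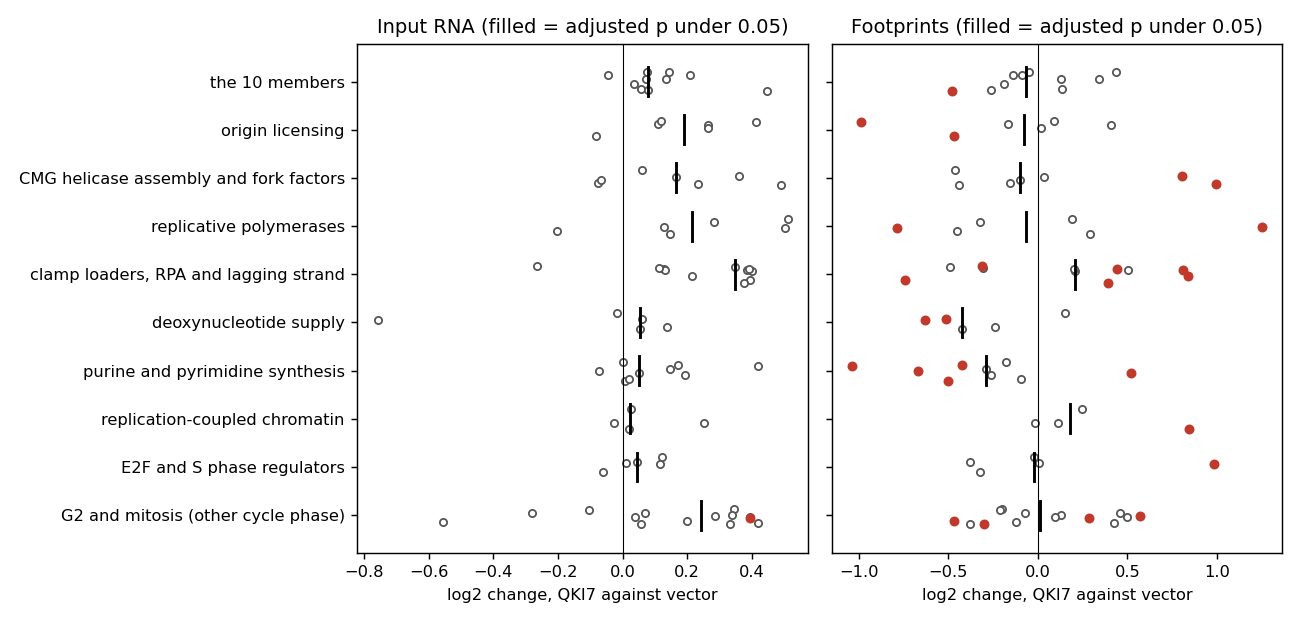
Log2 change between QKI7 and vector cells for the 10 genes and for the tested genes of each list, in inputs (left) and footprints (right); each point is a gene, black bars are medians and filled points passed an adjusted p of 0.05. In footprints the deoxynucleotide list has 2 filled points, both below 0, while those of the clamp loader list lie on both sides.

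The genes whose profile over the 8 libraries came closest to the median profile of the 10 genes were DDX39B, RBMS2, SEC24C, IST1 and DDB1. Their root mean square distances, on the log2 scale after centring each gene, were 0.0618, 0.0732, 0.0773, 0.0824 and 0.0839. The members themselves lay farther from it, from 0.121 for MCM7 to 1.90 for PCNA. Closeness to this median profile thus does not show likeness to the members.

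Annotation limits some values. In RefSeq, TYMS overlaps ENOSF1 and TYMSOS, and PCNA overlaps PCNA-AS1 and a snoRNA gene. MCM7 overlaps AP4M1 and holds the microRNA genes MIR25, MIR93 and MIR106B. RRM2 overlaps MIR4261, a snoRNA gene and a lncRNA gene, and MCM2 a lncRNA gene. Strand use in the counting is unstated in the labels, so reads of such partners cannot be told apart from those of the gene. RRM1 (Entrez gene 6240, chromosome 11, 4094685 to 4138932 in GRCh38.p14) has no overlapping gene there.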

How the data were processed

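The authors deposited TPM for each of 8 libraries with 2 decimals; STAR, RSEM 1.2.31 and GRCh38 are named per the submitters' processing notes. TPM keeps no read depth, so no counting interval is given. Of the entries, 23970 matched a RefSeq symbol, 1395 an older symbol and 1537 none. Protein-coding entries were kept, without 73 histone genes, and rescaled, because log2(TPM + 1) on the deposited values shrinks footprint values near or below 1 TPM. limma 3.58.1 in R 4.3.3 (lmFit, eBayes with a variance trend; 4 group means, 4 residual degrees of freedom) gave two-sided p-values, adjusted by Benjamini-Hochberg over the 3159 genes tested, with 0.05 as the threshold; intervals are 95% from that fit. The fit was tested on simulated data. Named list genes are up to 4 past the threshold per list and comparison, by size, and a fixed set given by value. Alternatives were other scalings, pseudocounts and filters, a replicate block, separate fits, library weights and leaving out each library. Members and lists were chosen with earlier results of these data known; 1 gene of the deoxynucleotide list is not reported here and is left out of that list's counts. Same-numbered replicates did not deviate together (correlations of deviations from -0.0582 to -0.0115), so the numbers were not treated as pairs. Promoter sequences are from RefSeq.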

Additional observations from a re-analysis of the deposited data

Results flagged for a closer look

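Genes are given here where the change with QKI7 differed between footprints and inputs by the interaction test. RRM1 was the member among them, with -0.93 (limma adjusted p = 0.0197). In the pathway lists, the difference was -1.40 for MCMBP, -1.29 for PRIM2, -1.14 for RFC3, -0.51 for IMPDH2 and -1.46 for GMPS, and 0.82 for DNMT1 (adjusted p = 0.0226, 0.0183, 0.013, 0.0451, 0.0189 and 0.0179). These were 1 of 10 members, 1 of 6 licensing, 1 of 6 polymerase and 1 of 11 clamp loader genes tested. The others were 2 of 9 purine and pyrimidine and 1 of 4 chromatin genes tested. The helicase and fork, deoxynucleotide, regulator and G2 lists had 0, of 7, 5, 5 and 14 tested. Over all tested genes 12.2% passed, 9.15% as higher and 3.04% as lower. In all 7 genes the direction held when any 1 library was left out, as far as the gene could then be tested. Without vector input replicate 1, QKI7 input replicate 1 or QKI7 input replicate 2 each of the 7 calls was lost, and without vector input replicate 2 all but that of RFC3; IMPDH2 also lost its call without vector footprint replicate 1 or QKI7 footprint replicate 2. The highest adjusted p in these fits was 0.181, for IMPDH2. With weights by library type 6 of the 7 passed, and IMPDH2 did not (adjusted p = 0.0573). With no filter on low values all 7 calls were lost (adjusted p from 0.0505 to 0.0994). DNMT1 was not called on the deposited scale (adjusted p = 0.99).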

How the results depend on the processing

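In inputs 0 members passed; the count was 4 on the deposited scale, 1 in the fit of the 4 inputs alone, 2 with weights by library type, and 0 without any 1 library. In footprints 1 passed, against 0 on the deposited scale, with a minimum of 100, in the fit of the 4 footprints alone and with weights, 2 with rescaled sums only or no variance trend, 3 with no filter, and 0 to 2 without 1 library. In translation efficiency 1 passed, against 3 on the deposited scale, 0 with a minimum of 100 or no filter, and 0 to 1 without 1 library. Of footprint to input ratios 7 passed in each construct, 2 with a minimum of 100, where 3 members were tested, and 7 to 9 (vector) and 7 to 8 (QKI7) without 1 library. RRM1 was not among the members tested with a minimum of 100, so the 0 in footprints and translation efficiency there does not bear on its calls. On the deposited scale all 9 members tested passed for the ratios in each construct, 1 higher and 8 lower. In vector cells 4 members were higher and 4 lower under quantile normalization, with no variance trend and in the fit of those 4 libraries alone. With the replicate block, 0 members passed in footprints (RRM1 limma adjusted p = 0.0525). The block changed no other call of a member. In the lists the footprint calls of GMNN, TOP1 and ATIC and the translation efficiency call of IMPDH2 (adjusted p = 0.0522) were lost with the block, and CENPF kept its call in inputs.

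Some signs turned. In inputs, with no filter, MCM2 had -0.074, MCM5 -0.059, MCM6 -0.049, RRM2 -0.095 and TYMS -0.052; RRM2 had -0.015 with rescaled sums only, and MCM7 0.077 on the deposited scale and 0.092 with a minimum of 100. In footprints, MCM2 had -0.028 and MCM5 -0.036 with no filter; MCM7 had 0.027 and PCNA 0.13 under quantile normalization, and MCM7 0.050 with a minimum of 100. In translation efficiency MCM2, MCM3, MCM4 and MCM5 had -0.14, -0.16, -0.17 and -0.17 on the deposited scale, and MCM7 0.050 under quantile normalization. Footprint to input ratios on the deposited scale were -1.52 for MCM2, -0.23 for RRM1 and -1.52 for TYMS in vector cells and -1.66, -0.83 and -1.96 in QKI7 cells. Without 1 library, footprint changes ranged from -0.12 to 0.36 for MCM2, -0.38 to 0.31 for MCM6 and -0.25 to 0.047 for MCM7; translation efficiency from -0.17 to 0.30 for MCM2, -0.038 to 0.18 for MCM5, -0.45 to 0.23 for MCM6 and -0.20 to 0.10 for MCM7; and vector ratios from -0.12 to 0.35 for MCM2 and -0.28 to 0.019 for MCM7. The sign turned without vector footprint replicate 1 (MCM2, MCM5 and MCM7), QKI7 footprint replicate 2 (MCM5, MCM6 and MCM7) or, for the ratios, vector footprint replicate 2. The cause was not tested. MCM6 was not tested on the deposited scale or without QKI7 input replicate 2.

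Over all genes, 183 passed in inputs (35 higher, 148 lower), against 2587 on the deposited scale (2269 higher, 318 lower), 933 in the inputs alone, 824 with weights and 77 with no variance trend. In footprints 995 passed, against 476, 451 and 433 in the first 3 of these settings, 252 with a minimum of 100 and 1729 with no filter. In translation efficiency 385 passed, against 1461 on the deposited scale, 186 with a minimum of 100 and 192 with no filter. For ratios, 2474 (vector) and 2385 (QKI7) passed, against 5667 and 5703, 504 and 508, and 11096 and 10590 in those 3 settings. Without 1 input library (vector input replicate 1 or 2, QKI7 input replicate 1 or 2), 90 to 105 genes passed in inputs (2 to 6 higher), 777 to 788 in footprints and 112 to 136 in translation efficiency. Without 1 footprint library, 215 to 242, 871 to 1011 and 427 to 574 passed. The number of libraries and the 2 decimals of low footprint values limit precision.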
